A study of Mus musculus with 12 samples.

Results

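The genes described here are Il1a, Il1b, Il1rn and Il18, which encode cytokines of the interleukin-1 (IL-1) family, and Nlrp3, Nlrc4, Pycard, Casp1, Casp4 and Gsdmd, which encode the parts of the inflammasome and its pore. They were chosen by name for what they encode and not by a measured value, and they make 10 of the 18719 genes listed for J774A.1 cells, a mouse macrophage line. All 10 were listed in both states and all 10 passed the filter on low counts in every comparison.

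RNA was sequenced from 3 WT and 3 ACAT1 KO lines without stimulation, and from 3 of each genotype treated with 100 ng/ml of lipopolysaccharide (LPS), a bacterial ligand of TLR4, for 2 hours, which gives 12 libraries in 4 groups of 3. Acat1 encodes a mitochondrial acetyl-CoA acetyltransferase, and the series compares macrophages with and without it at rest and after TLR4 stimulation. All lines, WT included, carry the history of transfection with a Cas9 and GFP plasmid, sorting and outgrowth from a few cells per well. Only the plasmid of the ACAT1 KO lines held a guide to Acat1, so a group stands for 3 outgrown lines of a single parental cell line.

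IL-1α and IL-1β signal through the same receptor, and the product of Il1rn blocks that receptor. In macrophages LPS is known to switch on transcription of Il1a, Il1b and Nlrp3, a step called priming. A sensor such as NLRP3 or NLRC4 then gathers the adaptor ASC (encoded by Pycard) and caspase-1, which cleaves pro-IL-1β, pro-IL-18 and gasdermin D, while caspase-11 (encoded by Casp4) responds to LPS inside the cell. Counts of RNA give the transcript level and say nothing of cleavage or secretion.

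The sequence before the start site is shown for Il1a and Il1b, which had the largest rises with LPS of the 10 genes, and for Il18, which had no detectable response. Each line gives the 250 bases before the RefSeq start site (GRCm38.p6), 5′ to 3′ on the strand of the gene. Capitals mark matches, on either strand, of 4 motifs. They are TATAAA, the core promoter element close to many start sites, the motif GAGGAA, which holds a core bound by the macrophage factor PU.1, the motif TGANTCA, which is the pattern of AP-1, and a 10-letter pattern for NF-kB that starts with 3 G and ends with 2 C, with any bases between.
Il1a, chr2:129309973-129310222, minus strand: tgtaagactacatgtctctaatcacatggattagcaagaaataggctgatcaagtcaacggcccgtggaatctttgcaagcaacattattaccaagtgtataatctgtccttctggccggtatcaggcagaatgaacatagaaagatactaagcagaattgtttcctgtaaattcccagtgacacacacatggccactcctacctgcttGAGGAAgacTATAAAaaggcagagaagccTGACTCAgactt
Il1b, chr2:129371140-129371389, minus strand: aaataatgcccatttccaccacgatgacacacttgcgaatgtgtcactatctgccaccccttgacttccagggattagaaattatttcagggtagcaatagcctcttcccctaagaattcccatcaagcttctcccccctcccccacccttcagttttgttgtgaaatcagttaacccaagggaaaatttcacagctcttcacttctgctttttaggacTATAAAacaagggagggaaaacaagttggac
Il18, chr9:50554450-50554699, plus strand: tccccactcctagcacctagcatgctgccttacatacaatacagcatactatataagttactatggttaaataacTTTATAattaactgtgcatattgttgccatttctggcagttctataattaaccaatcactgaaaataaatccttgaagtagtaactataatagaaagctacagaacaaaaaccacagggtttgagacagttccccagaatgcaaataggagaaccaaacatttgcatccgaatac
Il1a and Il1b each held TATAAA on the gene's own strand, with its last base 27 and 26 bases before the start site. The Il1a window also held GAGGAA ending 36 bases and a TGANTCA match ending 6 bases before the start, and none of its matches overlapped. The TATAAA match of Il18 lay on the other strand, 170 bases before the start. Of the windows of the same length before all 32851 start sites of the table, 12.4% held TATAAA, 23.3% GAGGAA, 6.75% TGANTCA and 45.8% the NF-kB pattern, which none of the windows shown held. These matches are letters in a window and not measured sites. RefSeq windows were found for 9 of the 10 genes. Of those not shown, Il1rn, Nlrp3, Casp1 and Casp4 held the NF-kB pattern in at least 1 window, and Pycard and Nlrc4 did not hold it.

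On the GRCm38 annotation, Il1a (chr2:129299610-129309972) and Il1b (chr2:129364570-129371139) are neighbours on the minus strand, with start sites 61167 bases apart. Il1rn (chr2:24336853-24351494, plus strand) lies far from them on the same chromosome. Il18 (chr9:50554827-50581840), Casp1 (chr9:5298517-5307265) and Casp4 (chr9:5308828-5336783), all on the plus strand, share chromosome 9 with Acat1 (chr9:53580522-53610382, minus strand). Nlrp3 (chr11:59541568-59566956) and Gsdmd (chr15:75862327-75867408) lie on the plus strand, and Pycard (chr7:127989708-127993867) and Nlrc4 (chr17:74425438-74459142) on the minus strand.

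The targeted gene checked the labels. Levels are given as CPM, the counts scaled to a common library size, normalized by the trimmed mean of M-values (TMM) over the 12 libraries, and they compare libraries within a gene. Acat1 was at 108.4, 107.1 and 80.8 CPM in the WT lines and at 28.9, 25.5 and 26.1 CPM in the ACAT1 KO lines without stimulation. After LPS it was at 85.4, 95.4 and 65.0 CPM in WT and at 19.9, 18.5 and 18.9 CPM in ACAT1 KO cells, so the genotypes did not overlap in either state and the transcript was reduced rather than absent. Libraries held 56948593 to 167280149 counts. The 10 macrophage markers, Lyz2 and Csf1r the most abundant, were all listed and summed to 8152.5 to 13060 CPM. Sums over markers are per library total, without TMM. Lists for other cells were sparse, with 2 of 5 T cell, 1 of 5 B cell, 2 of 5 neutrophil and 0 of 4 mast cell markers listed, and none of them summed to more than 13.4 CPM. Of 5 fibroblast or epithelial markers, Pdgfra and Col1a1 were listed, and they summed to 4.91 to 5.93 CPM in WT and 10.2 to 12.1 CPM in ACAT1 KO cells after LPS, and their part in the results was not tested. In the unstimulated WT 1, WT 2 and KO 2 libraries, which are the 3 smallest, noncoding genes inside exons of the other strand took 0.0398% to 0.0612% of the counts, against 0.00904% to 0.0110% in the other 9. No source used here says that the lines of a group were treated and harvested as separate experiments. The p-values thus measure the spread between libraries of a group. Among unstimulated libraries, deviations from the group means correlated at 0.48 to 0.65 between WT and ACAT1 KO libraries alike in their share of such antisense counts. Between those unlike in it they correlated at -0.79 to -0.34. In bulk RNA, fewer cells that use a gene and less of its RNA in each cell cannot be told apart.

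In WT cells, LPS raised 7 of the 10 genes and lowered Pycard. The threshold was an adjusted p (Benjamini-Hochberg) under 0.05 in the quasi-likelihood test of edgeR, which 57.4% of all genes passed, 29.3% higher and 28% lower. In ACAT1 KO cells LPS raised 8 and lowered Pycard, where 60.7% of all genes passed, 29.5% higher and 31.2% lower. The median log2 fold change of the 10 genes was 1.69 in WT and 1.75 in ACAT1 KO cells, beside -0.018 and -0.026 over all genes tested. Upper-quartile scaling moved the median of all genes to -0.23 and -0.17, and the same 8 and 9 of the 10 genes passed under it. The values below are given by role, and the plot of levels shows every library.

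**Figure D1:**
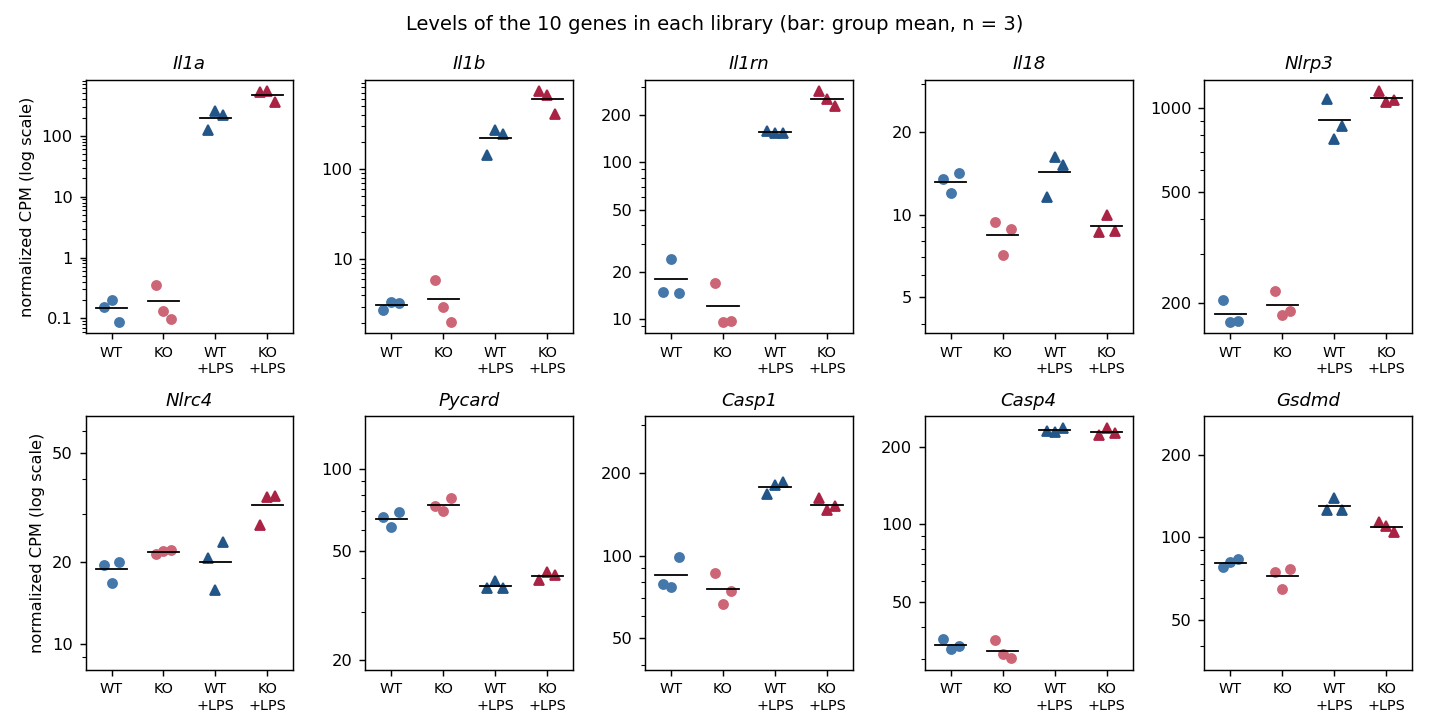
Normalized CPM (log scale) of the 10 genes in each of the 12 libraries, with circles for unstimulated and triangles for LPS-treated lines, blue for WT and red for ACAT1 KO, and bars at the group means (n = 3). Il1a and Il1b span the widest range, from under 1 and 10 CPM to over 100, Pycard is lower in all LPS libraries, and Il18 is lower in the ACAT1 KO libraries of both states.

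Il1a, encoding the cytokine IL-1α, was close to silent without LPS, at 0.156, 0.198 and 0.0890 CPM in WT and 0.355, 0.131 and 0.0991 CPM in ACAT1 KO cells, which stand for 11 to 49 counts a library. After LPS it was at 126.2, 252.7 and 221.6 CPM in WT and at 523.7, 540.6 and 353.5 CPM in ACAT1 KO cells. Every LPS library lay far above every unstimulated one, and every LPS-treated ACAT1 KO library lay above every LPS-treated WT library. The log2 fold change with LPS was 10.51 (standard error 0.46, adjusted p = 5.0e-09) in WT and 11.16 (standard error 0.44, adjusted p = 1.8e-09) in ACAT1 KO cells, and its size rests on the few counts at rest.

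Il1b, encoding IL-1β, the main substrate of caspase-1 among the cytokines, was at 2.76, 3.39 and 3.29 CPM in WT and 5.85, 2.97 and 2.06 CPM in ACAT1 KO cells at rest. It reached 141.9, 270.0 and 244.3 CPM in WT and 723.5, 651.4 and 404.5 CPM in ACAT1 KO cells after LPS. The unstimulated genotypes overlapped, since the KO 1 library was the highest and the KO 3 library the lowest of the 6, while the LPS-treated genotypes did not. LPS raised Il1b 69.4-fold in WT (adjusted p = 1.7e-07) and 162-fold in ACAT1 KO cells (adjusted p = 4.4e-08).

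Il1rn, encoding the IL-1 receptor antagonist, was at 14.9, 24.2 and 14.8 CPM in WT and 17.0, 9.68 and 9.71 CPM in ACAT1 KO cells without LPS. After LPS the WT lines were close together at 158.9, 152.9 and 153.8 CPM, and the ACAT1 KO lines stood at 283.4, 252.6 and 227.3 CPM. The genotypes therefore overlapped at rest and did not after LPS. LPS raised the antagonist 8.67-fold in WT (adjusted p = 4.2e-07) and 20.9-fold in ACAT1 KO cells (adjusted p = 3.5e-08).

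Il18, encoding a cytokine that macrophages make without priming, had the opposite layout. It was at 13.5, 11.9 and 14.1 CPM in WT and 9.43, 7.09 and 8.85 CPM in ACAT1 KO cells at rest, and at 11.6, 16.2 and 15.1 CPM in WT and 8.64, 9.96 and 8.70 CPM in ACAT1 KO cells after LPS. Every ACAT1 KO library was below every WT library of its state, and LPS and unstimulated libraries of a genotype overlapped. The LPS response did not pass in WT (log2 fold change 0.12, standard error 0.14, adjusted p = 0.491) or in ACAT1 KO cells (0.11, standard error 0.14, adjusted p = 0.533), and its sign turned with upper-quartile scaling.

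Among the sensors, Nlrp3, which responds to many forms of cell damage, was at 205.5, 171.9 and 173.1 CPM in WT and 221.4, 181.3 and 187.5 CPM in ACAT1 KO cells at rest. With LPS it was at 1078.7, 776.1 and 866.6 CPM in WT and 1153.1, 1052.9 and 1076.2 CPM in ACAT1 KO cells. The genotypes overlapped in both states, after LPS through the LPS-treated WT 1 library alone, and LPS raised Nlrp3 4.94-fold in WT (adjusted p = 2.9e-08) and 5.56-fold in ACAT1 KO cells (adjusted p = 1.4e-08).

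Nlrc4, the sensor that works with NAIP proteins against bacterial flagellin and secretion systems, was at 19.5, 16.7 and 20.04 CPM in WT and 21.4, 21.9 and 22.1 CPM in ACAT1 KO cells at rest. After LPS it was at 20.7, 15.8 and 23.6 CPM in WT and at 27.1, 34.5 and 34.8 CPM in ACAT1 KO cells. All 3 LPS-treated ACAT1 KO libraries were above the other 9. LPS raised Nlrc4 in ACAT1 KO cells (log2 fold change 0.56, standard error 0.14, adjusted p = 0.00385), whereas in WT the difference of 0.095 (standard error 0.14, adjusted p = 0.589) did not pass and turned negative with upper-quartile scaling.

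Pycard, encoding the adaptor ASC, was the only 1 of the 10 genes that fell with LPS. It was at 66.8, 61.2 and 69.5 CPM in WT and 73.4, 70.0 and 78.3 CPM in ACAT1 KO cells at rest, and at 36.7, 38.9 and 36.7 CPM in WT and 39.3, 41.9 and 41.0 CPM in ACAT1 KO cells after LPS. No LPS library reached an unstimulated one, and in each state the ACAT1 KO lines lay just above the WT lines. Its level fell by 0.81 on the log2 scale in WT (adjusted p = 4.7e-07) and fell by 0.86 in ACAT1 KO cells (adjusted p = 2.6e-07).

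Casp1, encoding the protease of the inflammasome, was at 78.8, 77.0 and 98.7 CPM in WT and 86.3, 66.4 and 74.2 CPM in ACAT1 KO cells at rest. With LPS it was at 167.4, 181.5 and 186.1 CPM in WT and 162.0, 147.0 and 152.0 CPM in ACAT1 KO cells. The genotypes overlapped at rest, and after LPS the ACAT1 KO lines lay below the WT lines. A term for the 3 libraries rich in antisense counts moved the log2 fold change at rest from -0.16 to -0.25. It did not pass in edgeR (adjusted p = 0.103). LPS raised Casp1 2.10-fold in WT (adjusted p = 4.8e-06) and 2.03-fold in ACAT1 KO cells (adjusted p = 6.2e-06).

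Casp4, encoding caspase-11, was at 35.7, 32.7 and 33.5 CPM in WT and 35.4, 31.3 and 30.2 CPM in ACAT1 KO cells at rest. LPS took it to 229.5, 229.0 and 236.9 CPM in WT and to 223.3, 236.3 and 225.5 CPM in ACAT1 KO cells. Genotypes overlapped in both states, and the rise of 6.82-fold in WT (adjusted p = 9.8e-11) and 7.07-fold in ACAT1 KO cells (adjusted p = 6.7e-11) kept the lines close together, with an SD of 1.51 to 6.96 CPM in the 4 groups.

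Gsdmd, encoding the pore protein gasdermin D, was at 77.7, 81.6 and 83.2 CPM in WT and 74.8, 65.0 and 77.0 CPM in ACAT1 KO cells at rest, and at 125.9, 139.8 and 125.7 CPM in WT and 113.5, 109.9 and 104.6 CPM in ACAT1 KO cells after LPS. In each state the ACAT1 KO lines lay below the WT lines. LPS raised it 1.61-fold in WT (adjusted p = 5.7e-06) and 1.51-fold in ACAT1 KO cells (adjusted p = 1.7e-05).

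**Figure D2:**
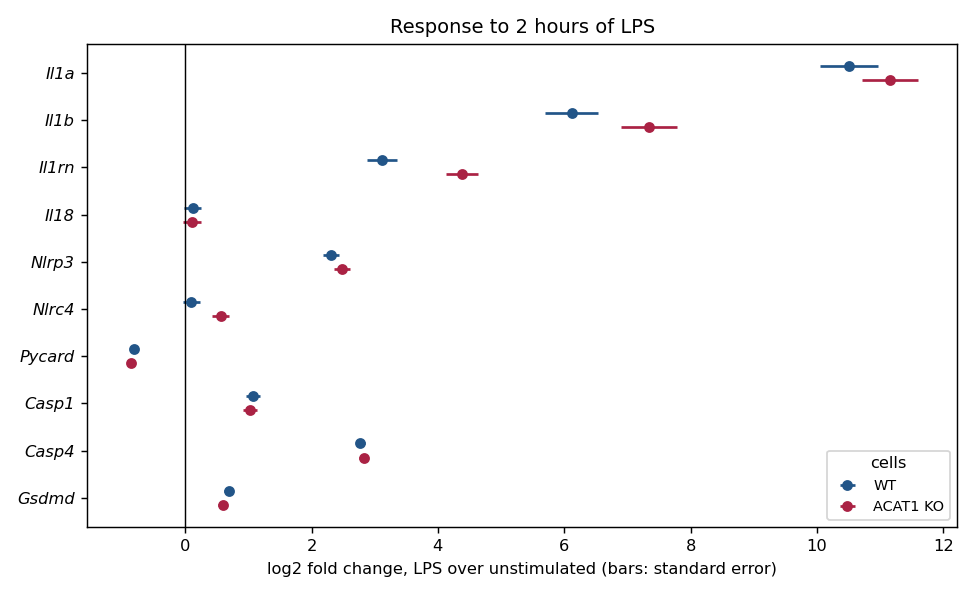
Log2 fold change with 2 hours of LPS for the 10 genes in WT (blue) and ACAT1 KO (red) cells, with bars for the standard error from the fit over 12 libraries. The cytokines Il1a, Il1b and Il1rn lie furthest right, at 10.51, 6.12 and 3.12 in WT and 11.16, 7.34 and 4.39 in ACAT1 KO cells, and Pycard alone lies clearly left of zero.

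The next comparison asked how ACAT1 KO differed from WT cells after LPS. Il1a, Il1b, Il1rn and Nlrc4 were higher and Il18 and Gsdmd were lower in ACAT1 KO cells, so that 6 of the 10 genes passed the adjusted threshold, where 15.1% of all genes tested did. By direction, 4 were higher against 5.93% of all genes and 2 were lower against 9.12%. The median log2 fold change was 0.22 over the 10 genes and -0.0041 over all genes. DESeq2 called the same 6 genes. Without stimulation, 0 of the 10 passed in edgeR, where 1.91% of all genes did, 3 had an unadjusted p under 0.05 (19.7% of all genes did), and DESeq2 called 1, Il18.

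Il1b was 2.75-fold higher in ACAT1 KO cells after LPS (log2 fold change 1.46, standard error 0.27, adjusted p = 0.0130), with means of 593 ± 167 CPM (SD, n = 3) against 218.7 ± 67.8 CPM (SD, n = 3). Il1a was 2.39-fold higher (log2 fold change 1.26, standard error 0.25, adjusted p = 0.0177), with means of 472.6 ± 103.5 CPM (SD, n = 3) against 200.1 ± 65.9 CPM (SD, n = 3). For both genes the LPS-treated WT 1 library was the lowest of the WT group and the LPS-treated KO 3 library the lowest of the ACAT1 KO group. Without the LPS-treated KO 2 library the adjusted p of Il1b was 0.0506 at a log2 fold change of 1.39 and that of Il1a was 0.0634 at 1.15. Without the LPS-treated KO 1 library Il1a again missed the threshold (log2 fold change 1.18, adjusted p = 0.0585).

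The receptor antagonist was higher too. Il1rn was 1.66-fold higher in ACAT1 KO cells after LPS (log2 fold change 0.73, standard error 0.078, adjusted p = 0.00269), and its call was kept in each of the 6 fits that left out a library. It passed in every other fit but that of all 12 libraries together (adjusted p = 0.0541). At rest its log2 fold change was -0.56 (standard error 0.29, adjusted p = 0.338), the opposite sign.

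Il18 was 1.55-fold lower in ACAT1 KO cells after LPS (log2 fold change -0.63, standard error 0.13, adjusted p = 0.0181) and had nearly the same difference at rest (log2 fold change -0.63, standard error 0.13, adjusted p = 0.0698). At rest it passed with at least 10 counts required in every library (adjusted p = 0.0495), with all 12 libraries in the fit (0.0178), with a term for the 3 libraries rich in antisense counts (0.0194) and in DESeq2 (2.1e-04). After LPS it lost the call without the WT 2 (adjusted p = 0.0574), KO 1 (0.0641) or KO 3 (0.0666) library, with log2 fold changes of -0.54, -0.60 and -0.60. Acat1 lies on the same chromosome. Within 500 kb of Il18 the 15 other genes tested after LPS had a median log2 fold change of -0.079 and none passed.

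Of the inflammasome genes, Nlrc4 was 1.63-fold higher in ACAT1 KO cells after LPS (log2 fold change 0.70, standard error 0.16, adjusted p = 0.0240), and lost the call without the LPS-treated KO 2 (log2 fold change 0.65, adjusted p = 0.0828) or KO 3 library (0.64, adjusted p = 0.0763). Gsdmd was 1.18-fold lower (log2 fold change -0.23, standard error 0.061, adjusted p = 0.0374). This call was lost most often, with an adjusted p of 0.0526 under upper-quartile scaling and of 0.111, 0.0571, 0.0770, 0.114 and 0.136 without the LPS-treated WT 2, WT 3, KO 1, KO 2 and KO 3 libraries, at log2 fold changes of -0.18 to -0.26.

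Nlrp3, Casp1 and Pycard had an unadjusted p under 0.05 after LPS, as 31.3% of all genes did, but missed the adjusted threshold. Their log2 fold changes were 0.29 (standard error 0.12, adjusted p = 0.128), -0.19 (standard error 0.063, adjusted p = 0.0741) and 0.14 (standard error 0.057, adjusted p = 0.128). Without the LPS-treated WT 1 library, in which Nlrp3 was highest among WT lines, Nlrp3 passed (log2 fold change 0.43, adjusted p = 0.0122) and so did Casp1 (-0.24, adjusted p = 0.0394). Casp4 showed no detectable difference (log2 fold change -0.00073, standard error 0.051, adjusted p = 0.996), and the sign of so small a value turned with the scaling.

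Without stimulation the log2 fold changes of the remaining genes were 0.47 (standard error 0.57) for Il1a, 0.21 (0.37) for Il1b, 0.11 (0.11) for Nlrp3, 0.23 (0.085) for Nlrc4, 0.18 (0.073) for Pycard, -0.16 (0.13) for Casp1, -0.065 (0.078) for Casp4 and -0.15 (0.076) for Gsdmd. Those of Il1a and Il1b rested on the unstimulated KO 1 library, and without it both were -0.33. At rest 2 genes, Pycard and Nlrc4, lay wholly higher and 2, Il18 and Gsdmd, wholly lower in the ACAT1 KO lines, where 25.5% of all genes had groups that did not overlap. After LPS 5 lay wholly higher and 3 wholly lower, where 36.9% of all genes had such groups.

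**Figure D3:**
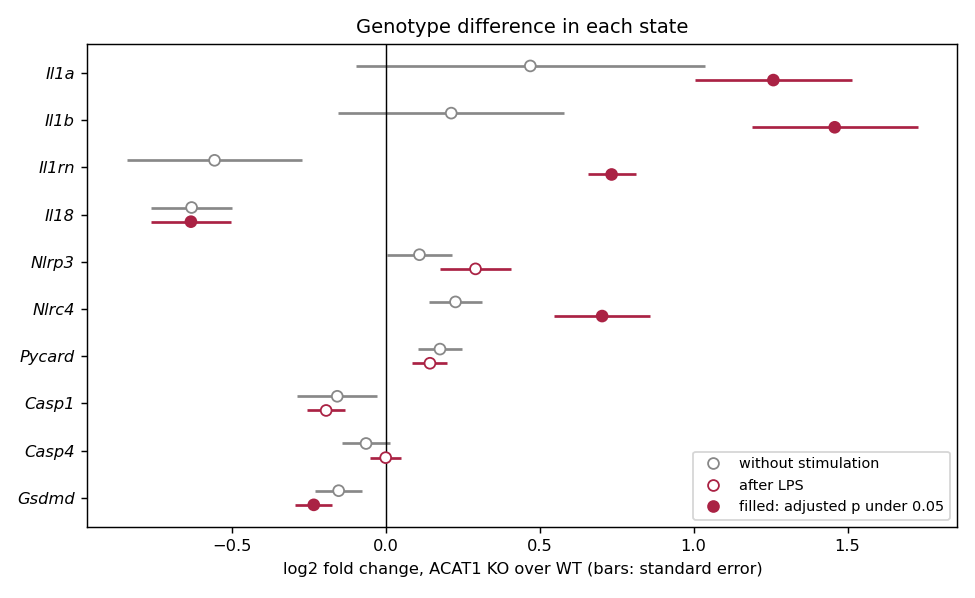
Log2 fold change of ACAT1 KO over WT for the 10 genes without stimulation (grey) and after LPS (red), with bars for the standard error from the fit of the 6 libraries of each state, and filled points for an adjusted p under 0.05. After LPS 6 points are filled, Il1a, Il1b, Il1rn and Nlrc4 to the right and Il18 and Gsdmd to the left, and at rest none is.

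Whether the genotype difference changed with LPS was tested as an interaction over the 12 libraries, without a replicate block. None of the 10 genes passed the adjusted threshold in edgeR (0 of 10, where 0.187% of all genes passed), 3 had an unadjusted p under 0.05 (8.92% of all genes did), and DESeq2 called 1, Il1rn (adjusted p = 0.0419). The interaction of Il1rn was 1.27 on the log2 scale (standard error 0.32, adjusted p = 0.150), that of Il1b was 1.22 (standard error 0.50, adjusted p = 0.482) and that of Nlrc4 was 0.47 (standard error 0.19, adjusted p = 0.493). That of Il1a, with few counts at rest, was 0.65 (standard error 0.82, adjusted p = 0.924), and that of Il18 was -0.015 (standard error 0.19, adjusted p = 0.999). A fit that took the replicate numbers as lines, which the labels do not state, called Il1b and Il1rn and is given at the end.

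Dividing the CPM by the exon length of each gene gives CPM per kb, which sets levels beside each other only roughly. The length counts all annotated exon bases of a gene over its transcripts, such as 3800 for Pycard, 5535 for Il1rn and 1907 for Il1b. Where the transcripts in these cells are shorter, the level is understated, so the orders below depend on these lengths. Transcript lengths in these cells were not measured. In unstimulated WT cells the order ran from Casp1 (mean 56.7 CPM per kb) over Nlrp3 (45.2), Gsdmd (34.0), Pycard (17.3), Il18 (12.8) and Casp4 (9.16) to Nlrc4 (3.90), Il1rn (3.25), Il1b (1.65) and Il1a (0.0748), and only Nlrc4 and Il1rn overlapped as neighbours. By their means, the inflammasome genes stood above Il1rn, Il1b and Il1a at rest. In unstimulated ACAT1 KO cells the order was the same but for Casp4 (8.70 CPM per kb), which stood above Il18 (8.20), and the neighbours Casp1 and Nlrp3, Casp4 and Il18, and Il1rn and Il1b overlapped.

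After LPS Il1a and Il1b joined the top of the order, while Il1rn and Il18 stayed in its lower part. In WT cells Nlrp3 led at 224 CPM per kb, followed by Casp1 (119), Il1b (115) and Il1a (101), which overlapped, and then by Casp4 (62.5), Gsdmd (54.9), Il1rn (28.0), Il18 (13.9), Pycard (9.85) and Nlrc4 (4.17). In ACAT1 KO cells Il1b (311), Nlrp3 (270) and Il1a (239) overlapped at the top and all stood above Casp1 (103), followed by Casp4 (61.6), Gsdmd and Il1rn (both 46.0, overlapping), Pycard (10.7), Il18 (8.83) and Nlrc4 (6.69).

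The ratio of Il1b to Il1rn in CPM per kb sets agonist beside antagonist transcripts. It was 0.537, 0.406 and 0.646 in WT and 1.00, 0.890 and 0.615 in ACAT1 KO lines at rest, and 2.59, 5.12 and 4.61 in WT and 7.41, 7.48 and 5.16 in ACAT1 KO lines after LPS. The ratio rose with LPS in both genotypes without overlap, and the ACAT1 KO lines lay above the WT lines after LPS, by little for KO 3 and WT 2. The ratio of Il1a to Il1b after LPS was 0.859, 0.904 and 0.876 in WT and 0.699, 0.802 and 0.844 in ACAT1 KO lines, lower in all ACAT1 KO lines. No test was run on these ratios, and their absolute size depends on the exon lengths used, which are the same in all libraries.

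Il1a and Il1b lie in a stretch of chromosome 2 in which many genes were higher in ACAT1 KO cells. From 90 Mb to the end of that chromosome, the median log2 fold change was 0.28 over 712 genes after LPS and 0.29 over 709 at rest, against -0.016 and -0.0067 on all other chromosomes, and after LPS 260 of the 712 were higher and 8 lower at the adjusted threshold. Before 90 Mb, where Il1rn lies, the median was 0.043 after LPS. Within 500 kb of Il1rn, however, the 6 other genes tested had a median of 0.41 after LPS and of 0.43 at rest. After LPS 2 of them, Il36a and Il36g, were higher and 0 lower at the adjusted threshold, and none passed at rest. Both were themselves raised by LPS and had group means of only 0.085 to 0.44 CPM at rest. The part of these local values in the higher Il1rn after LPS was not tested. Of the 712 genes, 5 had a larger log2 fold change than Il1b after LPS (Wfdc15a, Atp9a, Gm14051, Slpi and Ptgis) and 9 a larger one than Il1a, both of which are counted in the 712.

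Within 500 kb of Il1a and Il1b, 24 other genes were tested after LPS. Their median log2 fold change was 0.25, none exceeded that of Il1a or Il1b, and 5 were higher and 0 lower at the adjusted threshold. The highest was Il1bos (1.14, standard error 0.19, adjusted p = 0.00914), a noncoding gene on the other strand of Il1b. Sirpa, encoding an inhibitory receptor of macrophages, was higher by 0.47 (standard error 0.091, adjusted p = 0.0154). Mertk, encoding a receptor for dying cells, overlaps the edge of this window and is not among the 24. It had a value of 0.82 (standard error 0.23) and just missed the threshold (adjusted p = 0.0503). The 26 genes of this window tested at rest had a median of 0.30, between the values of Il1b (0.21) and Il1a (0.47) in that state. The part of the chromosome's shift in the higher Il1a and Il1b after LPS was not tested.

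**Figure D4:**
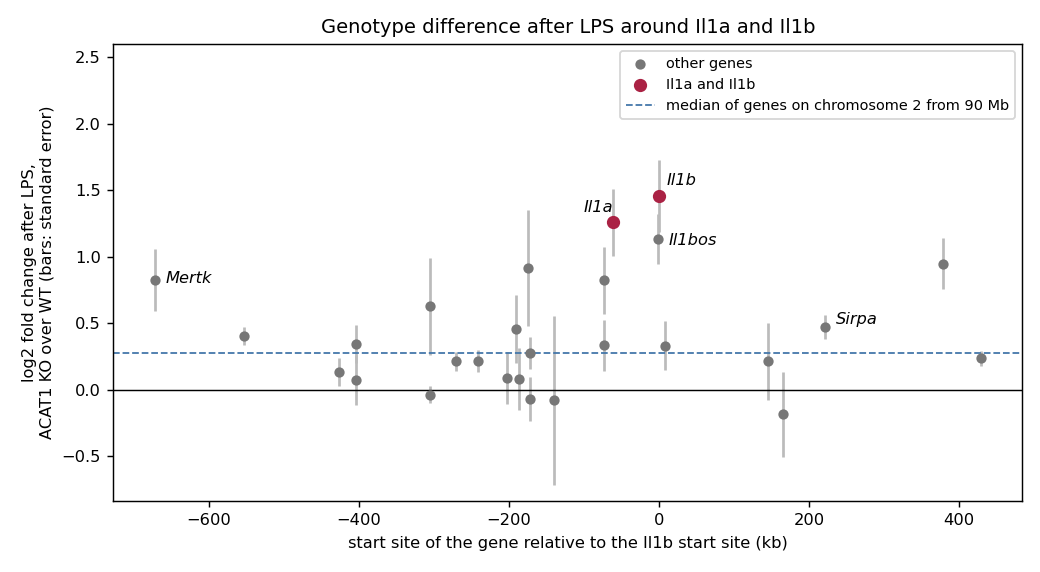
Log2 fold change of ACAT1 KO over WT after LPS for the genes within 500 kb of Il1a and Il1b, with Mertk, which overlaps the edge. Values stand against the distance of each start site from that of Il1b in kb, with bars for the standard error. Il1b (1.46) and Il1a (1.26) are the highest points, Il1bos (1.14) lies beside Il1b, and the dashed line is the median of 0.28 over chromosome 2 from 90 Mb.

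Some of the genes share exon bases with a gene on the other strand. Il1a shares 222 with Gm14023 (6 to 63 counts a library), Il1b shares 25 with Il1bos (7 to 342 counts) and Pycard shares 485 with Gm45205 (7 to 691 counts). Where the counting did not use strand, reads from such pairs cannot be told apart. At rest Gm14023 had 6 to 28 counts beside the 11 to 49 of Il1a, so the Il1a value in that state is uncertain. Gm45205 had 260, 285 and 691 counts in the unstimulated WT 1, WT 2 and KO 2 libraries, beside 4720, 4010 and 6433 of Pycard. After LPS Il1bos had 83 to 342 counts beside the 12100 to 72826 of Il1b, and Gm14023 16 to 63 beside the 10761 to 60442 of Il1a.

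A wider list of 63 genes of the same pathways, chosen for their function, had 50 genes listed. After LPS 4 of 49 tested were higher and 4 lower in ACAT1 KO cells, where 5.93% of all genes were higher and 9.12% lower, and at rest 1 of 47 was higher and 3 were lower, where 1.91% of all genes passed. After LPS the share that passed was thus close to that of all genes. The ligands Il36a (log2 fold change 0.81, adjusted p = 0.0276) and Il36g (1.14, adjusted p = 0.0452), which lie near Il1rn, were higher after LPS. Nlrx1 (0.46, adjusted p = 0.0281), a mitochondrial NLR protein, and Traf6 (0.25, adjusted p = 0.0362), a ubiquitin ligase below the IL-1 receptor, were higher too. Traf6 lies on chromosome 2 past 90 Mb, where the median log2 fold change after LPS was 0.28. The part of that shift in the value of Traf6 was not tested. Casp8 (-0.52, adjusted p = 0.00952) and Gsdme (-1.01, adjusted p = 0.0130), a gasdermin cleaved by caspase-3, were lower. So were Il18rap (-0.58, adjusted p = 0.00655) and Il1rl2 (-1.66, adjusted p = 0.0261), chains of the receptors for IL-18 and IL-36. At rest Nlrx1 was higher (0.49, adjusted p = 0.0484), and Tab1 (-0.58, adjusted p = 0.0368), Nod2 (-0.91, adjusted p = 0.0442) and Trim30a (-0.60, adjusted p = 0.0464), reported to restrain NLRP3, were lower.

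Of the 47 genes of this wider list tested in both states, LPS raised 22 and lowered 14 in WT, and raised 22 and lowered 15 in ACAT1 KO cells. Of all genes 29.3% rose and 28% fell in WT, and 29.5% rose and 31.2% fell in ACAT1 KO cells. None of the 47 passed the interaction, which 0.187% of all genes passed. The largest rises in WT were those of Tnfaip3 (log2 fold change 4.88), encoding the inhibitor A20, Il36a (4.36) and Il36g (4.09), and in ACAT1 KO cells those of Tnfaip3 (4.97), Nod2 (4.61) and Il36g (4.37). Gsdme (-2.22 and -2.49), the IL-33 receptor Il1rl1 (-1.55 and -1.42) and Txnip (-1.25 and -1.41), a partner of NLRP3, fell most in WT and ACAT1 KO cells. Of the 6 receptors tested, Il1r1, Il1r2 and Il1rap rose and Il1rl1 fell in both genotypes. Of the 7 genes of inflammasome licensing and activation, such as Nek7, none passed as higher, 4 fell in WT and 5 in ACAT1 KO cells. P2rx7, also of this class, had positive values that did not pass in WT (0.53, adjusted p = 0.0863) or in ACAT1 KO cells (0.33, adjusted p = 0.260).

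The genes with the most similar pattern over the 12 libraries, by Pearson's r of log2 CPM among 11960 genes, are given as a description, since the libraries fall into 2 states and genes that respond to LPS share that contrast. They included Nfkbie and Traf1 for Il1a (0.998 and 0.997), and Tsc22d1, Marchf5 and Il1a for Il1b (each 0.996). Lrrc63, Pdcd11 and Ccdc71l were closest to Il1rn, Tank, Psmd11 and Etf1 to Nlrp3, and Zc3h12c, Anxa7 and Swap70 to Casp4. Casp1 was closest to Relch, Micu3 and Ccar1, Gsdmd to Nupr1, Epc1 and Ecd, and Pycard to Neil1, Rabepk and Ubald2. For the 2 genes without an LPS response in WT the likeness was lower. Il18 was close to Hdhd2 and Ly6e, with r of 0.913 and 0.907, and Nlrc4 to Gm13493, Agtrap and Rpl36-ps12, with r of 0.923, 0.904 and 0.896.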

How the data were processed

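The RNA-seq data are 12 libraries of J774A.1 lines, 3 WT and 3 ACAT1 KO without stimulation and 3 of each with 100 ng/ml LPS for 2 hours, and were grouped by the titles in the labels. Per the labels, reads were trimmed with Trimmomatic 0.33, aligned to GRCm38 with HISAT2 and quantified with StringTie. The authors deposited 2 tables, for unstimulated and for LPS-treated cells, that hold raw counts as whole numbers, not normalized. The step that gave whole counts and its strand setting were not given in the sources used here. Beside the counts stand 12 columns of log2 values made by the authors, with their fold changes and p-values, none of which was used.

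The tables list 17544 and 17874 genes, after 59 and 57 identical repeated entries were removed, and 17521 and 17849 of them matched the GENCODE annotation. A gene is listed with 4 or more counts in 5 or 6 of the libraries in its table. Replicates differed by more than sampling noise (chi-square per degree of freedom 34.1 to 287 over 12 pairs), so that differences between libraries of a group and not counting error set the precision.

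Genotypes were compared within each state (16440 and 16483 genes) with edgeR 4.0.16 in R 4.3.3, using TMM, filterByExpr and the two-sided quasi-likelihood test with Benjamini-Hochberg adjustment over all genes tested. LPS responses and the interaction came from a group-means fit of all 12 libraries over 16535 genes of both tables. Standard errors are the log2 fold change over the square root of F. The alternatives were DESeq2 1.42.0, other normalizations, other filters, a replicate block, other sets of libraries, a term for the libraries rich in antisense counts, and each library left out in turn. The edgeR fits were tested on simulated data.

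The 10 genes and the wider list were chosen by function, with earlier results of these data known. All 10 were named. From the wider list every gene past the adjusted threshold in a genotype comparison was named, with the 3 largest LPS rises and falls among genes with a mean of at least 1 CPM. The most similar genes were the 3 with the highest r for each gene, from log2 CPM with a prior count of 2, of which 2 are not reported here. The neighbours named within 500 kb, the region of chromosome 2 from 90 Mb, and the windows around Il18 were chosen after values were seen.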

Additional observations from a re-analysis of the deposited data

How the results depend on the processing

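Of 739 values of single genes under an alternative, 681 kept their direction and their side of the threshold, 16 lost the call, 9 gained it and 33 turned sign, none of them a called value. Without stimulation 314 genes passed, against 475 with at least 10 counts in every library, 1721 in DESeq2, 1353 with all 12 libraries in the fit, 664 with the antisense term and 7 to 522 with a library left out. Of the 10 genes 0 passed in every fit with a library left out, and 1, Il18, in the other 4 settings. After LPS, leaving out a library gave 867 to 2245 genes and 2 to 8 of the 10, in place of 2481 and 6. For the interaction 31 genes passed, against 333 in DESeq2 (1 of the 10, Il1rn), 69 with the antisense term and 2 to 41 with a library left out (0 of the 10).

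The replicate numbers were not taken to pair libraries, because the labels do not say that a number marks a line and deviations from the group means correlated at 0.0913 to 0.307 over the 6 pairs of an unstimulated and an LPS library, 1 of them under 0.1, although each library correlated best with its own number. Between WT and ACAT1 KO libraries of the same number and state they ranged from -0.34 to 0.65. With the replicate number as a block 151 genes passed without stimulation (0 of the 10), and Gsdmd after LPS was at an adjusted p of 0.05001. With the line as a block 288 genes passed the interaction, 2 of the 10 among them, Il1b (1.32, adjusted p = 0.0364) and Il1rn (1.28, adjusted p = 0.0359).

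Upper-quartile scaling moved the share of higher genes among calls from 51.1% to 35.2% for LPS in WT, from 48.5% to 37.4% in ACAT1 KO cells and from 25.8% to 43.5% in the interaction. The cause of the sign changes that follow was not tested. Casp4 after LPS was 0.0057 with relative log expression and with DESeq2, 0.029 with upper-quartile scaling, 0.0035 with no filter and -0.024 to 0.025 with a library left out. With upper-quartile scaling the LPS response in WT was -0.090 for Il18 and -0.11 for Nlrc4, that of Il18 in ACAT1 KO cells was -0.043, and the interaction was 0.047 for Il18, 0.012 for Casp1 and 0.015 for Pycard. With the antisense term Il18 was -0.050 for LPS in WT, and the interaction was 0.078 for Il18 and 0.050 for Casp1. With the line block the interaction of Il18 was 0.0014. Leaving out a library also gave -0.042 to 0.24 for Nlrc4 with LPS in WT, -0.0060 to 0.19 for Il18 with LPS in ACAT1 KO cells, -0.33 to 0.79 for Il1a and -0.33 to 0.50 for Il1b at rest, and interactions of -0.14 to 0.082 for Il18, -0.17 to 0.057 for Casp1 and -0.086 to 0.0048 for Pycard. Depth limits only Il1a at rest, with 11 to 49 counts.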
